A study of Homo sapiens with 8 samples.

Results

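The genes described here are 4 tumour suppressors that are known from earlier work to be deleted, mutated or silenced in the prostate cancer cell lines PC3 or DU145: CTNNA1, RB1, CDKN2A and STK11. They were found by name, and each of the 4 names matched 1 row of a table of 33221 genes. All 4 passed the filter on low counts, which left 22727 genes for testing. The data are RNA-seq counts and FPKM (fragments scaled to transcript length and library size) of 8 libraries in 4 groups of 2. PC3 comes from a bone metastasis and DU145 from a brain metastasis of prostate carcinoma, and both grow without androgen. By their labels, PC3 EphA2 KO libraries came from PC3 cells given CRISPR/Cas9 lentivirus against the receptor tyrosine kinase EphA2. PC3 control libraries, by their labels, came from PC3 cells given CRISPR/Cas9 control lentivirus, and both were left for 72 h. DU145 EphA2 OE libraries, again by their labels, came from DU145 cells given an EphA2 expression plasmid, and DU145 control libraries from DU145 cells given a control plasmid, both left for 48 h. The DU145 groups are labelled wild type for EphA2, as is PC3 control. Cells labelled PC3 were grown in F-12K and those labelled DU145 in DMEM, so the line label, the medium, the delivery of the construct and the time cannot be told apart. The labels mention no selection of clones, and a group may hold unedited or untransfected cells. The table names the control columns NC and Vector, which were read by convention as the control lentivirus and the control plasmid.

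Alpha-catenin, the product of CTNNA1, binds beta-catenin beneath E-cadherin and ties adherens junctions to actin filaments. CDKN2A and RB1 act in a chain that holds cells before S phase: p16, a CDKN2A product, inhibits the kinases CDK4 and CDK6, which would otherwise phosphorylate the RB1 protein and free E2F transcription factors. A second product of CDKN2A from another first exon, ARF, restrains MDM2. STK11 encodes LKB1, a kinase that activates AMPK and its relatives together with STRAD and MO25 proteins. As background, PC3 is described as lacking CTNNA1 through a homozygous deletion and as carrying a methylated p16 promoter. DU145 is described as carrying a truncating RB1 mutation, an altered CDKN2A and an inactivated STK11. A homozygous deletion removes the transcript, whereas a mutated gene can still be transcribed. A level of RNA thus bears on the first kind of loss and says little about the second. Silencing also lowers a transcript, but the CDKN2A row sums p16 and ARF, so its level cannot show whether p16 was silenced. Counts per gene carry no variants, and none were examined here. CTNNA1 had at least 22247 counts in each library labelled PC3, which goes against that label as PC3 is described, so the identity of these libraries is in doubt. Between the line labels, 16 of 22727 genes tested passed in edgeR and 222 in DESeq2. The identity of the libraries labelled DU145 was not tested. Every comparison of the lines is therefore between libraries labelled PC3 and libraries labelled DU145, and why CTNNA1 is present was not tested.

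The loss of p16 in cancer is often tied to methylation of cytosines in CG pairs around its start, and a deletion removes the start altogether, so promoters are shown as reference sequence for CTNNA1, CDKN2A and STK11; none is shown for RB1. Each window runs from 250 bases before to 50 bases after a transcription start, 5′ to 3′, from RefSeq on GRCh38.p14, with every CG pair in capitals. The CTNNA1 window lies at chr5:138753175-138753474 on the plus strand, the CDKN2A window, that of the p16 start, at chr9:21974808-21975107 on the minus strand, and the STK11 window at chr19:1205528-1205827 on the plus strand.
CTNNA1: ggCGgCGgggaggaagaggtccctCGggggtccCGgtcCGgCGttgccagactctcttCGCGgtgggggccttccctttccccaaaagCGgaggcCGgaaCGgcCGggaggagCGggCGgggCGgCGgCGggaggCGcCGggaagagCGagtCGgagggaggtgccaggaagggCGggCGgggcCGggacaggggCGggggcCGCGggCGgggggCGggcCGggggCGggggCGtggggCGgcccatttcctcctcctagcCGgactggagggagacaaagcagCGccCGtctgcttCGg
CDKN2A: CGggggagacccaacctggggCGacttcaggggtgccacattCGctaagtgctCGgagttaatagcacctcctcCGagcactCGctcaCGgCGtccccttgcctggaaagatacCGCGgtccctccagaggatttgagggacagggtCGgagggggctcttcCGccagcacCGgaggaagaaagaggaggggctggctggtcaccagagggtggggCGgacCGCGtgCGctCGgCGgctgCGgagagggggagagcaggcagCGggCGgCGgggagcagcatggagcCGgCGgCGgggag
STK11: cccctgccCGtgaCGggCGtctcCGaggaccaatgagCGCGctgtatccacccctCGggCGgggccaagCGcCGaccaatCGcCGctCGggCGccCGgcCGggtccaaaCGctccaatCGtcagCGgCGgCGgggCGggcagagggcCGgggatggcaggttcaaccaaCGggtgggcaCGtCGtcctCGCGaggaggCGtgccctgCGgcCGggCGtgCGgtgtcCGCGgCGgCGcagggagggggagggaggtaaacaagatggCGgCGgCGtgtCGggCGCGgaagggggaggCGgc
The windows hold 37, 26 and 44 CG pairs in that order, against a median of 14 over 35116 RefSeq promoter windows of the same 300 bases. As many CG pairs or more were found in 11.3%, 30.1% and 4.19% of those windows. The 3 starts lie inside the genes as the table draws them. Methylation was not measured in these libraries.

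Total counts ran from 57571919 to 60951530 per library, and 25001 to 25680 genes had a count. The targeted gene EPHA2 was at 41.7 and 37.7 FPKM in PC3 EphA2 KO and 55.1 and 55.6 in PC3 control. It was at 69.3 and 81.0 FPKM in DU145 EphA2 OE and 58.8 and 58.9 in DU145 control. Its log2 fold change was -0.46 in the knockout (95% interval -0.68 to -0.24, adjusted p = 0.415 in edgeR). In the overexpression it was 0.31 (95% interval 0.09 to 0.53, adjusted p = 0.458 in edgeR). EPHA2 RNA thus moved in the direction of each label without passing over all genes. The protein was not measured here, so knockout and overexpression are used as labels. All 6 epithelial markers (EPCAM, KRT7, KRT8, KRT18, KRT19 and CDH1) were present, with a summed level of 488 to 505 FPKM in the libraries labelled PC3 and 440 to 485 FPKM in those labelled DU145. The prostate luminal markers HOXB13 and TMPRSS2 had at most 4 counts in a library. The 3 prostate basal markers (KRT5, KRT14 and TP63) summed to 0.0837 FPKM or less in the libraries labelled PC3. In those labelled DU145, KRT14 was at 1.08 to 1.77 FPKM. TP63 was near 0 under both labels, with at most 0.0140 FPKM under PC3 and 0.0296 under DU145. KRT5 had 0 counts in the 4 libraries labelled PC3 and 184 to 257 in those labelled DU145. No fibroblast, endothelial or haematopoietic marker reached 1 FPKM (10 markers in the table).

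CTNNA1 (ENSG00000044115, GRCh38 chromosome 5, 138610967 to 138935034, plus strand) was transcribed at a high level under both line labels, although PC3 is described as lacking the gene. It stood at 45.8 and 44.2 FPKM in PC3 EphA2 KO, at 41.0 and 36.5 FPKM in PC3 control, at 39.8 and 38.0 FPKM in DU145 EphA2 OE, and at 43.4 and 45.6 FPKM in DU145 control. The highest and the lowest of the 8 values both belonged to libraries labelled PC3, and the ranges of the line labels overlapped almost wholly. The libraries labelled PC3 held 22247 to 28671 counts of CTNNA1 each, and those labelled DU145 22947 to 28452. The level was 41.9 ± 4.10 FPKM in the libraries labelled PC3 and 41.7 ± 3.44 FPKM in those labelled DU145 (SD, n = 4 each). In edgeR the log2 fold change of DU145 over PC3 was 0.02 (SE 0.06, 95% interval -0.13 to 0.17; adjusted p = 0.983), so the interval held no difference above 1.12-fold in either direction. In bulk RNA, a smaller share of cells with a transcript and less of it per cell cannot be told apart.

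The alpha-catenin relatives give a scale for a gene that is off in these cells. They were singled out as relatives after values had been seen. CTNNA2, the neural alpha-catenin, had 0 to 18 counts in a library and at most 0.0339 FPKM, and CTNNA3, the form best known from heart and testis, had 0 to 15 counts and at most 0.0188 FPKM. CTNNAL1, a more distant relative, was at 58.9 to 75.4 FPKM. Both close relatives thus lay at or near 0 in all 8 libraries. The table lists 2 genes that overlap CTNNA1, both on the opposite strand: LRRTM2, which lies within it, with at most 16 counts in a library, and the lncRNA AC034243, also with at most 16.

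**Figure D1:**
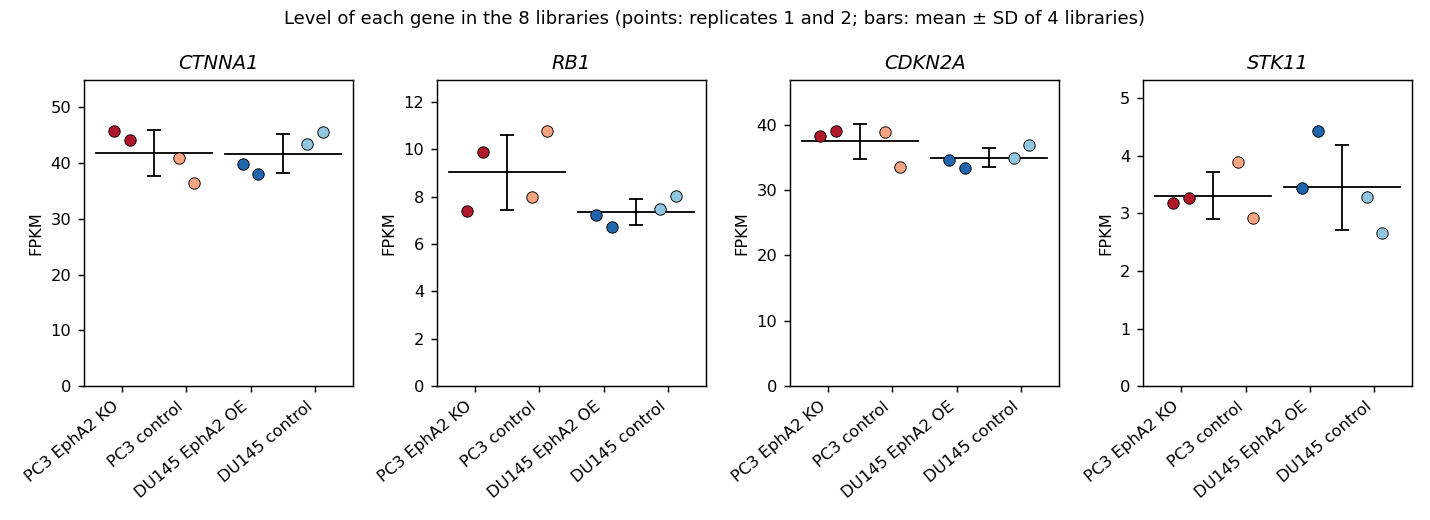
Level of CTNNA1, RB1, CDKN2A and STK11 in FPKM (vertical axes, starting at 0) in the 8 libraries, by group; points are libraries, and the bars give the mean and SD of the 4 libraries of each line label. The libraries labelled PC3 and DU145 overlap for each of the 4 genes, and no library lies near 0: the lowest value is 36.5 for CTNNA1, 6.73 for RB1, 33.4 for CDKN2A and 2.66 for STK11.

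RB1 (ENSG00000139687, chromosome 13, 48303744 to 48599436, plus strand), the pocket protein that restrains E2F factors, was transcribed in all 8 libraries. It stood at 7.40 and 9.91 FPKM in PC3 EphA2 KO, at 8.01 and 10.8 FPKM in PC3 control, at 7.21 and 6.73 FPKM in DU145 EphA2 OE, and at 7.49 and 8.04 FPKM in DU145 control. Replicate 2 of both groups labelled PC3 held the highest values, and the remaining 6 libraries lay between 6.73 and 8.04 FPKM. The mean was 9.03 ± 1.58 FPKM in the libraries labelled PC3 and 7.37 ± 0.550 FPKM in those labelled DU145 (SD, n = 4 each), with 3378 to 4792 and 2960 to 3655 counts. The log2 fold change of DU145 over PC3 was -0.27 (SE 0.13, 95% interval -0.58 to 0.04) and did not pass in edgeR (adjusted p = 0.736). Within a group the replicates labelled PC3 differed by 0.42 on the log2 scale in KO and by 0.42 in control, more than the difference between the line labels. Of 6 genes that overlap RB1 in the table, RCBTB2 on the opposite strand was the most abundant, at 2.68% of the RB1 counts, and LPAR6, a lysophosphatidic acid receptor gene inside an RB1 intron, had at most 15 counts.

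CDKN2A (ENSG00000147889, chromosome 9, 21967753 to 21994873, minus strand) was the second most abundant of the 4 per length. It stood at 38.3 and 39.1 FPKM in PC3 EphA2 KO, at 38.9 and 33.6 FPKM in PC3 control, at 34.6 and 33.4 FPKM in DU145 EphA2 OE, and at 35.0 and 36.9 FPKM in DU145 control. The library of PC3 control replicate 2 lay apart from the other libraries labelled PC3 and within the range of those labelled DU145. The mean was 37.5 ± 2.62 FPKM in the libraries labelled PC3 and 35.0 ± 1.43 FPKM in those labelled DU145 (SD, n = 4 each). The log2 fold change of DU145 over PC3 was -0.08 (SE 0.07, 95% interval -0.24 to 0.09; adjusted p = 0.876 in edgeR), and the interval held no difference above 1.18-fold. The row sums 11 transcripts, so p16 and ARF cannot be told apart. CDKN2B-AS1 (ANRIL), an opposite-strand lncRNA whose start overlaps the CDKN2A gene by 735 bases, had 181 to 253 counts against 9892 to 12248 of CDKN2A.

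STK11 (ENSG00000118046, chromosome 19, 1177558 to 1228431, plus strand) was the least abundant of the 4. It stood at 3.18 and 3.26 FPKM in PC3 EphA2 KO, at 3.88 and 2.91 FPKM in PC3 control, at 3.44 and 4.43 FPKM in DU145 EphA2 OE, and at 3.29 and 2.66 FPKM in DU145 control. The highest and the lowest values both came from libraries labelled DU145. The mean was 3.31 ± 0.411 FPKM in the libraries labelled PC3 and 3.45 ± 0.736 FPKM in those labelled DU145 (SD, n = 4 each), with 1776 to 2406 and 1655 to 2673 counts. The log2 fold change was 0.07 (SE 0.13, 95% interval -0.23 to 0.37; adjusted p = 0.953 in edgeR), and the interval held no difference above 1.29-fold. HMGB2P1, a pseudogene on the same strand within STK11, had 1.01% of its counts. CBARP, a calcium channel regulator gene on the opposite strand, overlaps the end of STK11 by 145 bases and had 35.9% as many counts as STK11. CBARP was highest in the same library as STK11, DU145 EphA2 OE replicate 2 (3.68 FPKM), and lowest in the same library, DU145 control replicate 2 (1.68 FPKM). The part of the overlap in the STK11 values was not tested.

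Between the line labels 0 of the 4 genes passed the threshold in edgeR, where 0.0704% of the 22727 genes tested did (16 genes), and 0 of 4 at an unadjusted p under 0.05, where 7.02% did; DESeq2 called 0 of 4 and 0.977% of genes. The line labels separated without overlap in FPKM for 0 of the 4 genes and for 3.87% of all genes tested, 1.58% higher and 2.3% lower under the DU145 label. The count of 16 was 25 without PC3 EphA2 KO replicate 1, 45 and 43 without DU145 EphA2 OE replicate 1 and 2, and 32 without DU145 control replicate 1. A smaller absolute log2 fold change than that of the member was found in 7.23% of genes tested for CTNNA1, 63.3% for RB1, 27.3% for CDKN2A and 24.96% for STK11. The median absolute log2 fold change of all genes tested was 0.17 between the line labels, on 4 against 4 libraries. It was 0.24 in the knockout, 0.26 in the overexpression and 0.26 between the control groups, each on 2 against 2 libraries. On 2 against 2 libraries the control groups thus lay about as far apart by this measure as groups within a label. The value on 4 against 4 libraries cannot be set beside these, as averaging more libraries lowers the spread. Replicate spread enters the measure, and 9916 of the genes tested had a mean FPKM under 1. How far the lines differ was not tested by it.

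**Figure D2:**
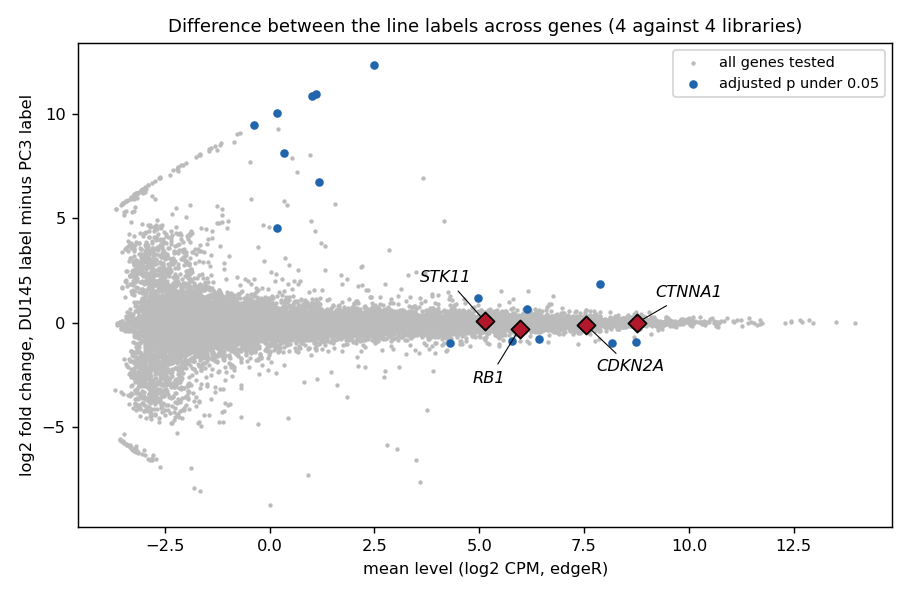
Log2 fold change of DU145 over PC3 labels (vertical axis) against mean level in log2 CPM (counts scaled to library size; horizontal axis) for 22727 genes in 4 against 4 libraries; grey points are genes, blue points the 16 with an adjusted p under 0.05, and red diamonds the 4 tumour suppressors. The diamonds lie in the grey band around 0, between -0.27 and 0.07.

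The order of mean levels per length over the 8 libraries was CTNNA1 (41.8 ± 3.51 FPKM), CDKN2A (36.2 ± 2.37), RB1 (8.20 ± 1.41) and STK11 (3.38 ± 0.557; SD, n = 8 each). CTNNA1 was above CDKN2A in each of the 8 libraries, although their ranges over libraries overlapped. RB1 was below both in each library, and STK11 below RB1. By mean FPKM they stood at the percentiles 96.4, 95.6, 78.7 and 62.9 of the genes tested. The lengths implied by FPKM and count were 10435, 5117, 7607 and 10426 bases for CTNNA1, CDKN2A, RB1 and STK11, so these levels are per summed exon length and not per main transcript.

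The genes also differed in how steady they were. The highest library was 1.17 times the lowest for CDKN2A, 1.26 times for CTNNA1, 1.60 times for RB1 and 1.67 times for STK11, on the FPKM scale. The SD of log2(CPM + 1) over the 8 libraries was 0.0951 for CDKN2A and 0.123 for CTNNA1, below the median of 0.17 over 11989 genes with a mean CPM of at least 5. It was 0.231 for RB1 and 0.224 for STK11, above that median.

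In the comparison of EphA2 knockout with its control, 0 of the 4 genes passed in edgeR, where 0.0264% of all genes did, and 0 of 4 in DESeq2, where 0.87% did. At an unadjusted p under 0.05 there was 1 of 4, CTNNA1, against 6.62% of all genes. CTNNA1 was higher in both knockout libraries than in both controls (45.0 ± 1.15 against 38.8 ± 3.19 FPKM; SD, n = 2 each), with a log2 fold change of 0.24 (SE 0.09, 95% interval 0.03 to 0.45; unadjusted p = 0.0326, adjusted p = 0.732 in edgeR). It was the 1 member of 4 whose FPKM did not overlap between these groups, and 43.1% of all genes tested separated so, 19.5% higher and 23.6% lower in the knockout. RB1, CDKN2A and STK11 had log2 fold changes of -0.10 (SE 0.19), 0.12 (SE 0.10) and -0.06 (SE 0.18), with overlapping groups.

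In the comparison of EphA2 overexpression with its control, 0 of the 4 genes passed in edgeR, where 0.0396% of all genes did, and 0 of 4 in DESeq2, where 1.44% did. At an unadjusted p under 0.05 there was again 1 of 4, CTNNA1, against 9.06% of all genes. CTNNA1 was lower in both overexpression libraries than in both controls (38.9 ± 1.30 against 44.5 ± 1.55 FPKM; SD, n = 2 each), with a log2 fold change of -0.24 (SE 0.09, 95% interval -0.45 to -0.03; unadjusted p = 0.0317, adjusted p = 0.517 in edgeR). RB1 (-0.20, SE 0.19) and CDKN2A (-0.12, SE 0.10) also lay lower in both libraries than in both controls, and STK11 (0.36, SE 0.18) lay higher in both. Thus all 4 members had groups that did not overlap, a pattern found in 37.3% of all genes tested (22.4% higher and 14.9% lower in the overexpression). DU145 EphA2 OE replicate 2 held the highest STK11 value of all libraries.

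The difference of the 2 responses was -0.47 for CTNNA1 on the log2 scale (SE 0.13, 95% interval -0.77 to -0.18; unadjusted p = 0.00665), and it did not pass over all genes in edgeR (adjusted p = 0.337; 0 of 4 members and 0.0308% of all genes passed, and in DESeq2 0 of 4 and 1.92%). CTNNA1 was the 1 member with an unadjusted p under 0.05, as were 10.1% of all genes. It was -0.10 for RB1, -0.24 for CDKN2A and 0.42 for STK11, with adjusted p = 0.931, adjusted p = 0.609 and adjusted p = 0.625. Between the control groups alone CTNNA1 had a log2 fold change of DU145 over PC3 of 0.26 (SE 0.09, 95% interval 0.04 to 0.47; adjusted p = 0.476 in edgeR), and 0 of 4 members passed (0.0572% of all genes; in DESeq2 0 of 4 and 1.67%). The unadjusted p was under 0.05 for 1 of 4, CTNNA1, and for 9.01% of all genes. The control groups did not overlap for CTNNA1, as for 44.1% of all genes (16.6% higher and 27.5% lower under the DU145 label), and overlapped for the other 3 members. These comparisons share control libraries and are not independent of each other. With the NC and Vector columns exchanged, the CTNNA1 values were -0.02 for the knockout and 0.02 for the overexpression, so its within-line values rest on the reading of the control columns. For the line labels the exchanged value was -0.24 (adjusted p = 0.337 in edgeR). By construction this is the difference of responses above on another scale, and not a separate result.

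**Figure D3:**
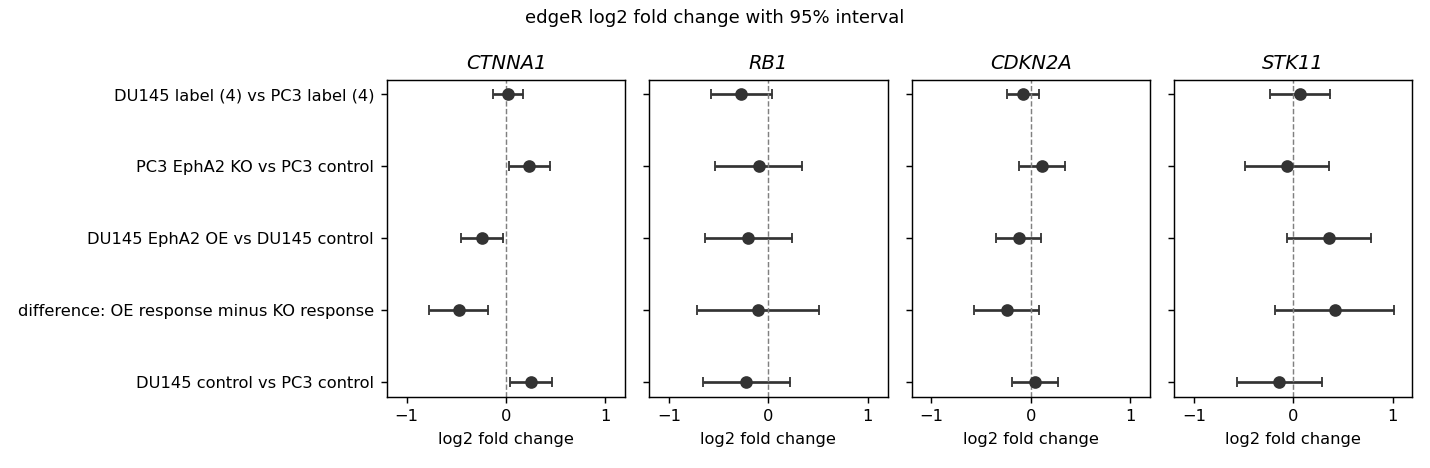
Log2 fold changes from edgeR (horizontal axes) of the 4 genes in 5 comparisons (rows), with 95% intervals as bars and a dashed line at 0. The intervals of CTNNA1 exclude 0 in the 4 lower rows and span -0.13 to 0.17 between the line labels, while those of RB1, CDKN2A and STK11 include 0 in all 5 rows.

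A homozygous deletion can take neighbouring genes with it, so up to 3 of the nearest tested genes on each side of each member were examined (23 genes). Between the line labels 0 of the 23 passed in edgeR and 0 in DESeq2, against 0.0704% and 0.977% of all genes. An unadjusted p under 0.05 in edgeR was found for 1 of the 23, against 7.02% of all genes. The median log2 fold change was 0.05 against 0.00 over all genes. Around CTNNA1, ETF1, a translation release factor, lay at 62.5 ± 3.55 FPKM under the PC3 label and 62.5 ± 2.52 under the DU145 label, and HSPA9, the mitochondrial HSP70, at 72.9 ± 3.63 and 78.5 ± 11.6 FPKM (SD, n = 4 each). SIL1, whose nearer end lies 11690 bases from CTNNA1 and which encodes a nucleotide exchange factor of the endoplasmic reticulum, lay at 6.86 ± 0.493 and 6.26 ± 1.26 FPKM. SNHG4, a snoRNA host gene, was the 1 flanking gene of 23 whose line labels did not overlap, a pattern found in 3.87% of all genes tested. It lay at 8.79 to 10.1 FPKM under the PC3 label and 10.2 to 11.4 under the DU145 label (log2 fold change 0.19, SE 0.07, adjusted p = 0.652 in edgeR). MATR3, the nuclear matrix protein matrin 3, ranged from 9.61 to 31.5 FPKM within the libraries labelled PC3 alone, and the snoRNA SNORD63 had at most 16 counts.

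CDKN2A and its neighbours on chromosome 9 are often lost as a block in cancers. CDKN2B, which encodes the related inhibitor p15 and whose nearer end lies 8030 bases from CDKN2A, was at 3.37 to 4.44 FPKM under the PC3 label and 3.28 to 4.73 under the DU145 label. MTAP, an enzyme of methionine salvage 30102 bases away on the other side, was at 1.66 to 2.53 and 1.58 to 2.63 FPKM. Both were thus present in all 8 libraries, with overlapping ranges. CDKN2A-DT (0.122 to 0.752 FPKM over the libraries labelled PC3), the lncRNAs AL359922 and LINC01239, and the transcription factor gene DMRTA1 lay at or under 0.838 FPKM. Around RB1, MED4 (a Mediator subunit), ITM2B (a membrane protein) and FNDC3A had mean levels of 9.24 to 11.6 FPKM under either label and log2 fold changes of -0.12 to 0.13, while the pseudogene PSME2P2 and AL161421 had at most 31 and 148 counts in a library. Around STK11, POLR2E (an RNA polymerase II subunit), GPX4 (the lipid peroxide reductase), SBNO2, ATP5F1D (an ATP synthase subunit) and MIDN had log2 fold changes of -0.06 to 0.18, and AC004221 had at most 19 counts.

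**Figure D4:**
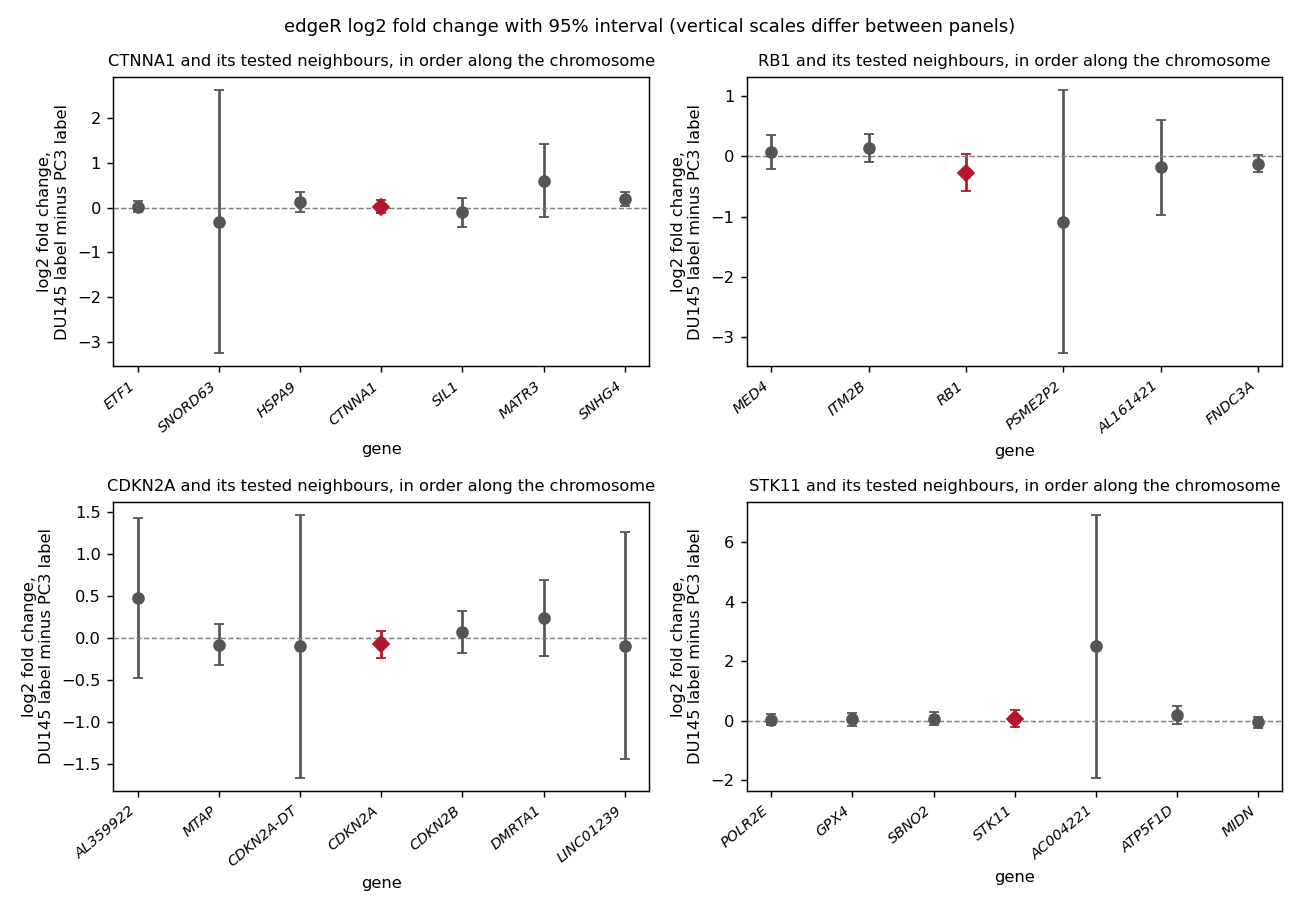
Log2 fold change of DU145 over PC3 labels from edgeR (vertical axes, which differ in scale) for each tumour suppressor (red diamond) and up to 3 of the nearest tested genes on each side (grey points) in chromosome order, with 95% intervals. The wide intervals belong to genes with few counts, such as SNORD63, PSME2P2 and AC004221; the interval of SNHG4 (0.03 to 0.35) is the 1 that excludes 0.

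The E-cadherin gene CDH1 lay higher in all 4 libraries labelled PC3 than in all 4 labelled DU145, but no partner of alpha-catenin passed between the line labels in edgeR. Of 15 listed cadherins, catenins and actin linkers 13 were tested, and 0 passed in edgeR between the line labels. The line labels did not overlap in FPKM for 2 of the 13, CDH1 and CTNNB1, against 3.87% of all genes. CTNNB1, beta-catenin, was named after values had been seen. It also lay lower under the DU145 label (log2 fold change -0.12, SE 0.06, adjusted p = 0.745 in edgeR). An unadjusted p under 0.05 in edgeR was found for 5 of the 13, against 7.02% of all genes. DESeq2 called 2 of the 13, against 0.977% of all genes. The median log2 fold change of the 13 was -0.06 against 0.00 over all genes. CDH1, E-cadherin, was at 20.8 to 29.1 FPKM in the libraries labelled PC3 and 14.3 to 19.9 in those labelled DU145. Its log2 fold change was -0.51 (SE 0.07, adjusted p = 0.067 in edgeR and 1.6e-07 in DESeq2). Between the control groups alone it was -0.07 (SE 0.09, adjusted p = 0.869 in edgeR and 0.947 in DESeq2). In the knockout it was 0.45 (SE 0.09, adjusted p = 0.415 in edgeR and 0.0128 in DESeq2). In the overexpression it was -0.43 (SE 0.09, adjusted p = 0.368 in edgeR and 0.019 in DESeq2). The value between the line labels thus rests mainly on the knockout and overexpression libraries. JUP, gamma-catenin, was at 9.35 to 11.8 and 6.18 to 10.2 FPKM (log2 fold change -0.44, SE 0.09; adjusted p = 0.279 in edgeR and 0.00447 in DESeq2). Between the control groups alone JUP lay farther apart, at -0.77 (SE 0.12, adjusted p = 0.135 in edgeR and 6.2e-05 in DESeq2). In the overexpression it was 0.51 (SE 0.12, adjusted p = 0.394 in edgeR and 0.0423 in DESeq2). LIMA1, an actin linker of adherens junctions, had a log2 fold change of 0.30 (SE 0.09, adjusted p = 0.582 in edgeR). In the knockout and the overexpression 0 of the 13 passed in edgeR. DESeq2 called 1 and 2 of them, against 0.87% and 1.44% of all genes: CDH1 in both, and JUP in the overexpression.

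Among the partners of RB1 and CDKN2A, all 12 RB family, E2F and DP genes were tested and 0 passed in edgeR between the line labels (unadjusted p under 0.05 for 1; DESeq2 called 0), with log2 fold changes of -0.13 to 0.17 and a median of -0.04. E2F3, an activating E2F, was at 9.45 to 10.4 FPKM in the libraries labelled PC3 and 10.7 to 11.5 in those labelled DU145 (log2 fold change 0.17, SE 0.07), RBL1 (p107) had a log2 fold change of 0.16 (SE 0.08) and the E2F partner TFDP1 one of -0.12 (SE 0.08), with adjusted p of 0.699, 0.751 and 0.827 in edgeR. Of the 15 CDK inhibitors, G1 cyclins and kinases 0 passed, with a median of 0.02. An unadjusted p under 0.05 in edgeR was found for 1 of the 15, and DESeq2 called 0. Both lists stand beside 7.02% of all genes at such a p and 0.977% called by DESeq2. CCND1, cyclin D1, had a log2 fold change of 0.19 (SE 0.05, adjusted p = 0.57 in edgeR). CDKN1A, which encodes p21, was between 43.2 and 49.7 FPKM in 4 libraries and between 19.4 and 24.1 FPKM in the other 4, with libraries of both line labels in each range. CCND2, cyclin D2, had 12 to 89 counts in a library.

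Of 20 genes that E2F factors drive and RB restrains, 0 passed in edgeR between the line labels, and their median log2 fold change was 0.02. An unadjusted p under 0.05 in edgeR was found for 3 of the 20, against 7.02% of all genes. DESeq2 called 0 of the 20, against 0.977%. CDC6, which loads the replicative helicase, had a log2 fold change of -0.26 (SE 0.09), RRM2, a ribonucleotide reductase subunit, of 0.23 (SE 0.08) and TK1, thymidine kinase, of 0.22 (SE 0.08), with adjusted p of 0.604, 0.634 and 0.634 in edgeR. In the knockout and the overexpression 0 genes of these 3 lists passed in edgeR or in DESeq2. Unadjusted p-values under 0.05 in edgeR numbered 3 in each, and were found for 6.62% and 9.06% of all genes.

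All 22 complex partners and kinases of LKB1 were tested, and 0 passed in edgeR between the line labels, with a median log2 fold change of 0.06. An unadjusted p under 0.05 in edgeR was found for 1 of the 22, against 7.02% of all genes. DESeq2 called 1 of the 22, against 0.977%. CAB39, which encodes the MO25 scaffold of the complex, was at 19.2 to 22.5 FPKM in the 4 libraries labelled PC3 and at 20.3, 8.32, 8.34 and 7.23 FPKM in those labelled DU145. DU145 EphA2 OE replicate 1 thus stood with the libraries labelled PC3, and the replicates of the overexpression group lay apart (log2 fold change -0.93, SE 0.25; adjusted p = 0.539 in edgeR and 0.012 in DESeq2). PRKAG2, an AMPK subunit, and MARK2, a polarity kinase, had log2 fold changes of 0.27 (SE 0.12) and 0.20 (SE 0.10), with adjusted p of 0.728 and 0.743 in edgeR. The kinase catalytic subunits of AMPK, PRKAA1 and PRKAA2, were at 24.1 to 26.7 and 2.93 to 4.18 FPKM over all libraries; they were singled out after values had been seen. In the knockout and the overexpression 0 of the 22 passed in edgeR, with unadjusted p under 0.05 for 2 and 6 and DESeq2 calls for 0 and 1. Over all genes such a p was found for 6.62% and 9.06%, and DESeq2 called 0.87% and 1.44%. The DESeq2 call in the overexpression was SIK1, a salt-inducible kinase, named after values had been seen. It was at 5.03 and 13.6 FPKM in DU145 EphA2 OE and 2.18 and 1.86 FPKM in DU145 control. Its overexpression libraries both lay above their controls but far from each other (log2 fold change 2.15, SE 0.39; adjusted p = 0.268 in edgeR and 2.8e-06 in DESeq2). The table also lists its near-identical copy SIK1B, so the division of reads between them is uncertain.

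**Figure D5:**
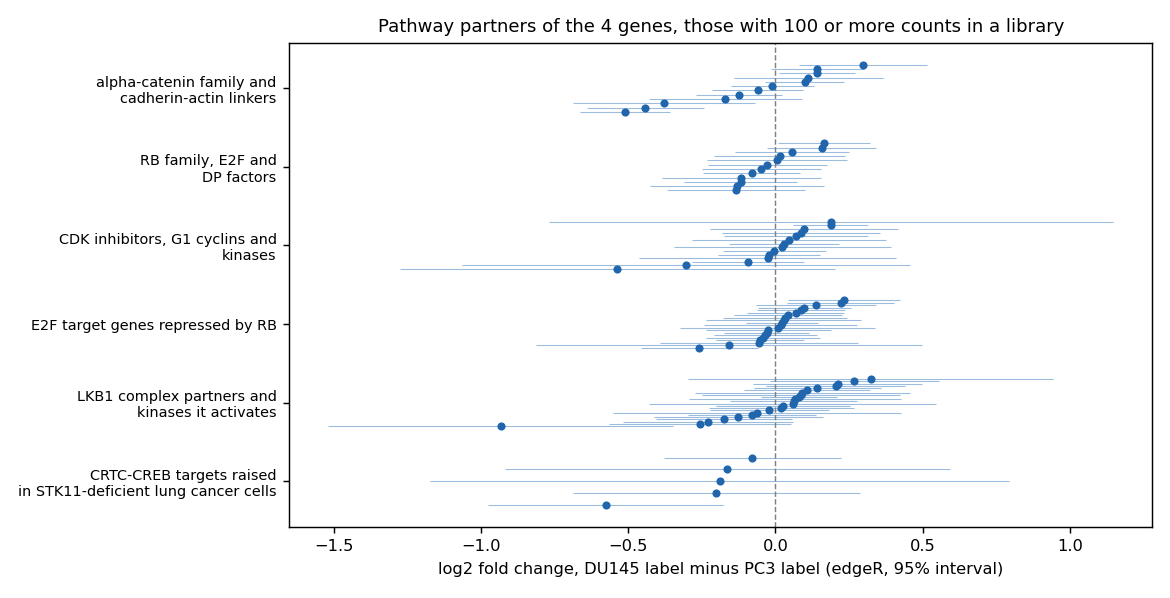
Log2 fold change of DU145 over PC3 labels (horizontal axis, edgeR, with 95% intervals) of the 85 tested partner genes that reached 100 counts in a library, in 6 lists (rows). Points scatter around 0 in each list but the last, whose 5 plotted genes lie below 0; CDH1 at -0.51 and CAB39 at -0.93 lie farthest left in their lists.

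A last list held 8 genes of the CREB coactivators CRTC, which LKB1 and the SIK kinases restrain and which are raised in lung cancer cells without STK11. Of the 6 tested, 0 passed in edgeR between the line labels. All 6 had log2 fold changes below 0, from -3.20 to -0.08, with a median of -0.20 against -0.002 over all genes. Of all 22727 genes tested, 11288 lay above 0. An unadjusted p under 0.05 in edgeR was found for 1 of the 6, against 7.02% of all genes. DESeq2 called 0 of the 6, against 0.977%. PDE4B, a cAMP phosphodiesterase, was at 0.558 to 0.587 FPKM in the libraries labelled PC3 and at 0.557, 0.414, 0.270 and 0.322 FPKM in those labelled DU145 (log2 fold change -0.58, SE 0.17, adjusted p = 0.574 in edgeR). NR4A1, an orphan nuclear receptor, ranged from 1.40 to 2.62 FPKM under the PC3 label and from 1.20 to 2.78 under the DU145 label. CPS1, the urea cycle enzyme, had at most 15 counts in a library and INSL4 at most 4. In the overexpression all 6 had log2 fold changes above 0, as did 11605 of all 22727 genes tested, and 0 of the 6 passed in edgeR or DESeq2. An unadjusted p under 0.05 in edgeR was found for 2 of the 6, against 9.06% of all genes. Between the control groups all 6 lay below 0 under the DU145 label, with a median of -0.85 against -0.007 over all genes. Of all 22727 genes tested, 11112 lay above 0 between these groups. There such a p was found for 2, against 9.01% of all genes. These comparisons share the DU145 control libraries, in which CPS1 had 0 counts.

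The genes most like each member over the 8 libraries were found by Pearson's r of log2(CPM + 1) among 11989 genes with a mean CPM of at least 5; with so many genes and 8 libraries, high values arise for any gene, and they are descriptions. For CTNNA1 they were INSIG1, a brake on sterol synthesis (r = 0.973, Spearman's rho = 0.929), TXNDC17 (r = 0.953, rho = 0.905) and BOK (r = 0.946, rho = 0.857). For RB1 they were TEX9 (r = 0.944, rho = 0.833), FAM234A (r = 0.920, rho = 0.929) and PRADC1 (r = 0.915, rho = 0.881). For CDKN2A they were DNM1L, the mitochondrial fission GTPase (r = 0.960, rho = 0.929), MRPL21 (r = 0.959, rho = 0.905) and USE1 (r = 0.955, rho = 0.976). For STK11 they were PARP6 (r = 0.977, rho = 0.976), DHX16 (r = 0.976, rho = 0.976) and PEX11A (r = 0.965, rho = 0.976). No gene appeared among the 3 of more than 1 member.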

How the data were processed

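RNA of 8 libraries was measured by poly(A) RNA-seq with dUTP strand marking and paired ends, per the labels' protocols. The deposited table gives raw counts (whole numbers) and FPKM for each gene. The submitters' processing notes name HISAT2 2.2.1, StringTie 2.1.6 and cutadapt 1.9, beside edgeR and DESeq2, and the build GRCh38. The annotation release, and whether counting used strand, are not stated in those notes; where strand was not used, reads of overlapping genes cannot be told apart. All 16 value columns were mapped and 0 left out. Control columns NC and Vector were assigned by convention, and their exchange was an alternative.

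The deposited counts went into the quasi-likelihood test of edgeR 4.0.16 under R 4.3.3, with 4 group means over 8 libraries (4 residual degrees of freedom), TMM scaling, filterByExpr (minimum count 10, minimum total 15) and Benjamini-Hochberg adjustment over 22727 genes, threshold 0.05. The line labels were compared as means of group means. Each SE was derived from the F statistic, and 95% intervals use the t distribution. The fit was tested on simulated data. DESeq2 1.42.0 and limma 3.58.1 on log2(FPKM + 1) and log2(FPKM + 0.1) were alternatives, beside other scalings, filters, designs and the omission of each library. CPM are counts scaled to the library total. No label states whether the replicates are separate cultures; if they are not, the p-values reflect technical spread only. Depth was 57571919 to 60951530 counts per library, and counting error is small beside replicate spread at the members' counts.

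Genes named beside the members are, in each partner list, the 3 with the lowest p between the line labels, as no list gene passed; up to 3 of the nearest tested genes on each side and overlapping genes; and the 3 genes most like each member. The members and lists were chosen with earlier results of these data known. A neighbouring gene and a marker are not reported here.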

Additional observations from a re-analysis of the deposited data

Results flagged for a closer look

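CDKN2A in the 4 libraries labelled PC3 had a gap of 0.863 of the range between its lowest library, PC3 control replicate 2 at 33.6 FPKM, and the next, above the 95% critical value of 0.829 for 4 samples. Chance alone exceeds that value in about 1 of 20 groups, and 12 groups were examined. These 4 libraries join knockout and control. Without PC3 control replicate 2 the log2 fold change of DU145 over PC3 for CDKN2A was -0.12.

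CTNNA1 was higher in both PC3 EphA2 KO libraries than in their controls and lower in both DU145 EphA2 OE libraries than in theirs. The difference of these responses was -0.475 on the log2 scale, and in the test of that difference in edgeR it did not pass over all genes (adjusted p = 0.337). With the controls of the line labels exchanged it was 0.04, which by construction restates the comparison of the line labels on another scale.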

How the results depend on the processing

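No member passed the threshold in any of 356 values (20 results under 17 or 18 alternatives each), and the sign turned in 32 of them, over 12 results. The values are log2 fold changes, and the cause was not tested. Between the line labels CTNNA1 was at -0.0053 with library totals alone, -0.24 with the controls exchanged, and -0.0034 in limma with either pseudocount. Without 1 library it ran from -0.019 to 0.060, below 0 without PC3 control replicate 2, DU145 EphA2 OE replicate 1 or DU145 control replicate 2. STK11 ran from -0.023 to 0.18, below 0 without PC3 control replicate 2, DU145 EphA2 OE replicate 2 or DU145 control replicate 1. RB1 (-0.37 to -0.05) and CDKN2A (-0.12 to -0.02) kept their sign between the line labels under all alternatives run. With the controls exchanged, CTNNA1, RB1 and STK11 were at -0.019, 0.12 and 0.080 in the knockout, CTNNA1 at 0.018 in the overexpression and 0.037 in the difference of responses, and CTNNA1, RB1, CDKN2A and STK11 at -0.26, 0.22, -0.044 and 0.14 between the controls, where the exchange turns the sign by construction. By the same construction, the exchange makes the line labels and the difference of responses restate each other's main values on another scale. Between the controls CDKN2A was at -0.013 with library totals alone and at -0.0083 and -0.0084 in limma with a pseudocount of 1 and 0.1. Without 1 library, in the knockout RB1 ran from -0.33 to 0.14 (above 0 without PC3 EphA2 KO replicate 1 or PC3 control replicate 2) and STK11 from -0.24 to 0.16 (above 0 without PC3 control replicate 1). RB1 ran from -0.34 to 0.13 in the difference (above 0 without PC3 EphA2 KO replicate 2 or PC3 control replicate 1). Between the controls RB1 ran from -0.42 to 0.018 (above 0 without PC3 control replicate 2), CDKN2A from -0.052 to 0.15 (below 0 without PC3 or DU145 control replicate 2) and STK11 from -0.32 to 0.079 (above 0 without PC3 control replicate 1 or DU145 control replicate 2).

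Counts of genes called over the whole table moved more. DESeq2 called 222, 190, 309, 410 and 357 genes for the line labels, the knockout, the overexpression, the difference and the controls, against 16, 6, 9, 7 and 13 in edgeR. A minimum mean FPKM of 1 gave 10, 12 and 23 for the line labels, the knockout and the difference, and no filter gave 4 for the overexpression. With the controls exchanged 7, 13 and 16 passed for the line labels, the knockout and the difference. Of these, 7 and 16 are by construction the main counts of the difference and the line labels. In limma 27 and 41 passed for the line labels with a pseudocount of 1 and 0.1, 23 and 25 for the controls, and 12 for the knockout with 0.1. The 4 libraries of the line alone gave 0 for the overexpression in edgeR (an unadjusted p under 0.05 for 1237), and the 4 control libraries alone 20. Without 1 library, where the remaining library of its group is assumed to vary like the other groups, the counts were 14 to 45, 6 to 27, 3 to 376, 11 to 323 and 4 to 114 in the same order. Without DU145 EphA2 OE replicate 1 they were 45, 26, 376, 323 and 112, and without its replicate 2 they were 43, 27, 40, 93 and 114. Without PC3 EphA2 KO replicate 1 they were 25, 13, 4 and 15 in the first 4 comparisons, without its replicate 2 they were 3 and 11 in the overexpression and the difference, and without PC3 control replicate 1 they were 21, 16, 16 and 25 in the last 4. Without PC3 control replicate 2 they were 10, 15 and 11 in the middle 3 comparisons. Without DU145 control replicate 1 they were 32, 17, 25 and 26 in all but the knockout, and without its replicate 2 they were 11 and 4 in the difference and the controls.

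Replicate numbers are shared between groups, and a replicate block gave 9, 0, 3, 3 and 3 calls in the same order, with no member called. Same-numbered libraries did not deviate together (correlations of deviations from -0.016 to 0.042 over 22727 genes), so the number is not shown to pair them.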
